A study of Mus musculus with 10 samples.

Results

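10 genes that mark or sustain dendritic cells were followed over the 10 arrays of the series, of 12393 genes named on them: Flt3, Zbtb46, Itgax, Csf2ra, Csf2rb, Csf2rb2, Cd24a, Dpp4, Cd1d1 and Id2. They were taken by gene symbol from the platform annotation, with every probe set that carries 1 of these symbols and no other, which gave 19 of the 22690 probe sets of the deposited table. Of these, 17 passed the filter on dim signals and were tested, and the 2 others, 1 of Zbtb46 and 1 of Dpp4, were not. A further probe set is annotated to Csf2rb2 and Csf2rb together and was assigned to neither.

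Flt3 is the receptor for Flt3 ligand, the growth factor that drives dendritic cell development from marrow progenitors. The receptor for GM-CSF, the growth factor used to raise dendritic cells in culture, joins an alpha chain, Csf2ra, to a signalling beta chain, Csf2rb, and mice carry a second beta chain, Csf2rb2, that serves IL-3. Among the other genes, Zbtb46 is a transcription factor of classical dendritic cells, Id2 blocks E proteins during their development, Itgax encodes the integrin chain CD11c, and Cd24a, Dpp4 (CD26) and Cd1d1 encode surface proteins.

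The cells were dendritic cells grown from bone marrow of wild-type C57BL/6 mice and of Cd14-/- C57BL/6 mice, called CD14-deficient here, both 6 to 8 weeks old. CD14 is the co-receptor that passes bacterial LPS to TLR4. All cultures were grown for 7 to 10 days with supernatant of B16 tumour cells transduced with GM-CSF, so every group, the unstimulated one included, had been exposed to that factor, and cultures were used when more than 90% of cells were CD11c positive. Each genotype had 1 array of unstimulated cells harvested 24 h after plating, 1 each at 48 and 60 h with smooth LPS at 1 µg/ml, and 1 each at 48 and 60 h with LPS and 50 nM thapsigargin, an inhibitor of the calcium pump of the endoplasmic reticulum. Thapsigargin alone is not among these groups. With 1 array per condition, the spread between cultures and between mice is not known, and an LPS comparison also sets 48 or 60 h in culture against 24 h. The stated purpose of the series concerns cell death: which apoptosis genes NFAT, a factor switched on by calcium, regulates once dendritic cells meet LPS.

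Cd14 itself followed the labels: its scaled signal was 1499 in unstimulated and 15538 to 17729 in stimulated wild-type cells, and 1.85 to 7.35 on the 5 CD14-deficient arrays. Signals are MAS5 intensities scaled to one trimmed mean, on which 99.2 is the median of all values and values under 13.4 were raised to that floor before log2 was taken. They order the arrays for one probe set and say nothing of one gene's level against another's. The MHC class II genes H2-Aa and H2-Ab1 were bright on all 10 arrays (H2-Ab1 5942 to 9822), as was Cd74 (10915 to 15345). To sums of marker signals, bright probe sets add most. For the sum of 6 dendritic cell markers, CD14-deficient cells at 48 h of LPS lay within the range of the other arrays (41567, in 28576 to 46075). Cd74, H2-Aa and H2-Ab1 gave most of that sum. The other markers in it are genes followed here: Flt3 (1149) and Zbtb46 (874) were highest on this array, and Itgax was low (892, in 750 to 7838). The array also lay within the range of the others for cDC2 and monocyte-derived dendritic cell, plasmacytoid dendritic cell, neutrophil, T and NK cell, mast cell and basophil, and stromal markers. This array stood apart in the sums that follow. The sum of 8 cDC1 markers was highest there (14117, against 6240 to 12254 elsewhere): Batf3 was highest there (3488), Irf8 was higher with thapsigargin as well (9282), Naaa was higher on 3 other arrays, Tlr3 was lowest there (47.4), and Xcr1, Cd8a, Itgae and Cadm1 were too dim to test. The sum of 11 macrophage markers was lowest there (9936, against 15145 to 43875): Cd68, Csf1r, Mertk and Fcgr1 were lowest there, while Adgre1 (2731) was above both unstimulated arrays and C1qa, C1qb and C1qc were above all 4 thapsigargin arrays. The sums of 4 progenitor markers (2655) and 4 B cell markers (521) were highest there, with most of the signal from Kit and Sox4 and from Ms4a1, and 15 µg of cRNA was the lowest yield. The 3 control probe sets for 18S rRNA read 114 to 385 on it and 217 to 685 in wild-type cells at 60 h of LPS (19 µg of cRNA), against 1426 to 12656 on the 8 other arrays. The part of these differences in the results below was not tested.

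The sequences just upstream of the start of 4 of the genes are given: Flt3, Dpp4 and Itgax because their signals spread widely over the arrays, and Csf2ra because its signal ran closest to that of Itgax. Each run is the 250 bases before the annotated start, read 5′ to 3′ on the gene's strand, from RefSeq on GRCm38.p6, in which 7 of the 10 genes were matched. The windows are chr5:147400490-147400739 on the minus strand for Flt3, chr7:128129300-128129549 on the plus strand for Itgax, chr19:61228419-61228668 on the minus strand for Csf2ra and chr2:62412232-62412481 on the minus strand for Dpp4. Capitals mark matches, on either strand, to the core GAGGAAG bound by PU.1, the myeloid transcription factor encoded by Spi1.
Flt3: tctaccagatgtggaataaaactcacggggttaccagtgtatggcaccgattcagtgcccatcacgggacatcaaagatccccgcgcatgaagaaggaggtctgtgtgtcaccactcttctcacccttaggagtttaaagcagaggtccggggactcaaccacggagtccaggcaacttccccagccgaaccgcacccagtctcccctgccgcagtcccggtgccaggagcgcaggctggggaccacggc
Itgax: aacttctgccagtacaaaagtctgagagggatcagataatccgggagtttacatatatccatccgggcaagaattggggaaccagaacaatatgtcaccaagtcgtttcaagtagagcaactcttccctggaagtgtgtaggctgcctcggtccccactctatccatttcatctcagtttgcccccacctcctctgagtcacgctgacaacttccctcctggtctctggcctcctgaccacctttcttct
Csf2ra: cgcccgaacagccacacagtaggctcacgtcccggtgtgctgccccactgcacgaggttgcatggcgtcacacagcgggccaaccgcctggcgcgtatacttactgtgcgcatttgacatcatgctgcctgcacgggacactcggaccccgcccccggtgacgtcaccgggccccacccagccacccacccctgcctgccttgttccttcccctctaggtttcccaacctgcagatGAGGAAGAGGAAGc
Dpp4: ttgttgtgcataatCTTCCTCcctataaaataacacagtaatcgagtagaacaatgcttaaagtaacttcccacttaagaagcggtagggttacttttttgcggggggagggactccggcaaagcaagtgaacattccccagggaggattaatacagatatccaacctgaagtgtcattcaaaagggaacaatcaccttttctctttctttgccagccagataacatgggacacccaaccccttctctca

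Csf2ra held 2 such matches that overlap, the first 14 bases before the start, and Dpp4 held 1 on the opposite strand, 236 bases before it. The Flt3 and Itgax windows held none. The core was found in 10.6% of all 32851 windows of this length, so a match is common, and no match says only that these letters are absent from this window. A STAT motif (TTCNNNGAA, in 7.02% of windows) had no match in these 4 windows.

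Flt3 was near or under the median signal on 8 of the 10 arrays and stood far above it in CD14-deficient cells given LPS alone. Unstimulated wild-type cells read 114, and the wild-type arrays then read 84.7 and 65.7 with LPS at 48 and 60 h and 92.8 and 94.2 with LPS and thapsigargin. Unstimulated CD14-deficient cells read 53.8, and their arrays read 1149 and 334 with LPS and 53.6 and 67.5 with LPS and thapsigargin. The 2 CD14-deficient LPS arrays thus lay above the 8 others, which spanned 53.6 to 114, and they were 21.4-fold and 6.22-fold above the unstimulated CD14-deficient array. That array was itself under the median signal, where background weighs on a probe set, so the size of these folds is uncertain, as is that of every fold below against a signal under 99.2. The filter on dim signals asks for 2 arrays above 99.2, and Flt3 passed it through the 2 CD14-deficient LPS arrays and the unstimulated wild-type array. Without those 2 LPS arrays it would not have been tested, so the filter favours the Flt3 calls below, which use the same 2 arrays.

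A change was called when limma's p, adjusted by the Benjamini-Hochberg method over all 11649 probe sets tested, was under 0.05. Flt3 rose with LPS in CD14-deficient cells by 3.75 ± 0.66 on the log2 scale (SE; adjusted p = 0.0478). In wild-type cells the LPS change was -0.38 ± 0.66 (adjusted p = 0.733). Under LPS, wild-type cells were lower than CD14-deficient cells by a log2 difference of -3.05 ± 0.52, with a 95% interval of -4.33 to -1.78 (adjusted p = 0.0388). These 3 comparisons share arrays, and in bulk RNA fewer cells of a type and less RNA per cell cannot be told apart.

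With thapsigargin, Flt3 fell in CD14-deficient LPS cells, with a log2 change of -3.37 ± 0.52 (adjusted p = 0.0259), to the level of unstimulated cells. In wild-type cells the thapsigargin change was 0.33 ± 0.52 (adjusted p = 0.876). With LPS and thapsigargin together, wild type minus CD14-deficient was 0.64 ± 0.52, with an interval of -0.64 to 1.91 (adjusted p = 1). The difference of the LPS responses between the genotypes was -4.13 ± 0.90 (adjusted p = 0.435), and that of the thapsigargin responses was 3.69 ± 0.74 (adjusted p = 0.213). Neither difference passed the test, so the responses of the genotypes are given side by side and are not shown to differ.

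The Flt3 calls were kept without either CD14-deficient LPS array. The LPS rise was 2.64 without the 48 h array and 4.42 without the 60 h array. Those fits leave that condition 1 array, so this is no test of the calls. The Flt3 calls were lost without any 1 of the 2 wild-type LPS arrays or the 4 thapsigargin arrays. There the LPS rise was 3.77 to 3.88, the genotype difference -3.109 to -2.999 and the thapsigargin fall -3.89 to -2.85. Each of these fits also leaves 1 condition with 1 array. Without the filter on dim signals the adjusted p was 0.133, 0.130 and 0.102 for these 3 results, and for the LPS rise it was 0.0504 without the floor and 0.0508 with a stricter filter.

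**Figure D1:**
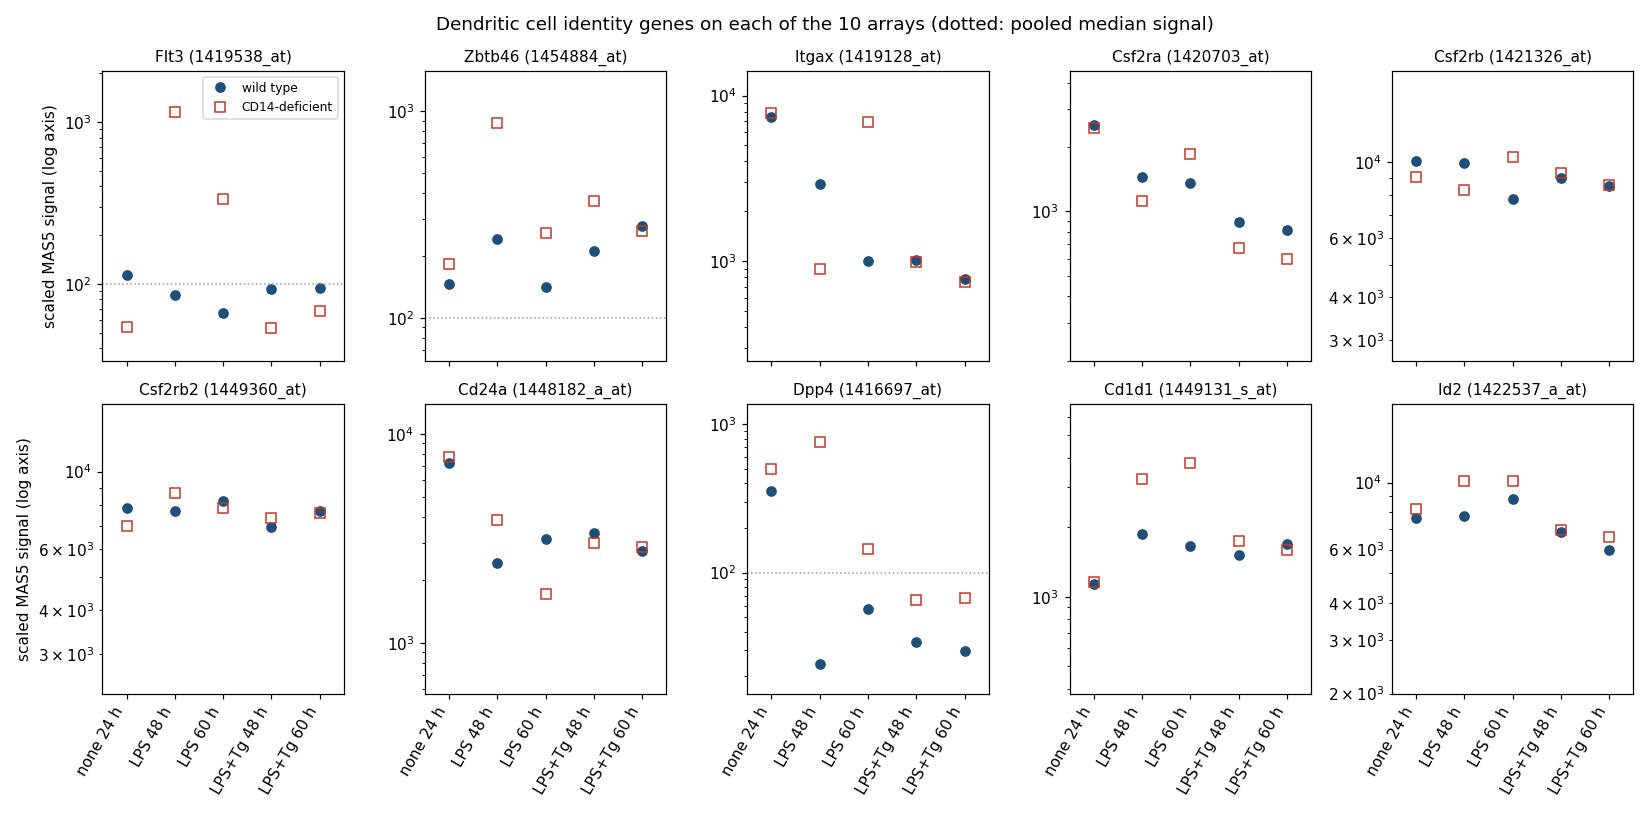
Scaled MAS5 signal on a log axis of the brightest probe set of each of the 10 genes in wild-type (filled circles) and CD14-deficient (open squares) cells, with 1 array per point: unstimulated at 24 h, LPS at 48 and 60 h, LPS with thapsigargin (Tg) at 48 and 60 h. Flt3 reached 1149 and 334 on the 2 CD14-deficient LPS arrays and at most 114 on the others, while Csf2rb stayed between 7813 and 10344.

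For the GM-CSF receptor, the signal of the alpha chain Csf2ra was lower on each of the 8 stimulated arrays than on either unstimulated array, on both its probe sets, and 1 of these passed the test, in wild-type cells. For its brighter probe set the wild-type arrays read 2528 unstimulated, 1452 and 1351 with LPS at 48 and 60 h, and 887 and 818 with thapsigargin as well. The CD14-deficient arrays read 2455 unstimulated, 1120 and 1861 with LPS, and 675 and 600 with thapsigargin as well. On this probe set the 4 thapsigargin arrays lay below the 4 LPS arrays, which lay below both unstimulated arrays. On the dimmer probe set the LPS and thapsigargin arrays overlapped. It read 54.4 and 90.8 with LPS in wild-type and 145 and 138 in CD14-deficient cells. With thapsigargin as well it read 83.7 and 80.8 in wild-type and 50.6 and 86.5 in CD14-deficient cells.

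By the test, the dimmer probe set of Csf2ra fell with LPS in wild-type cells, with a log2 change of -2.03 ± 0.42 (adjusted p = 0.0323), from 255 to 54.4 and 90.8. It kept that call without either CD14-deficient LPS array (log2 change -2.10), but those fits leave that condition 1 array, so this is no test of the call. It lost the call without any 1 of the 6 other stimulated arrays (log2 change -2.23 to -1.70) and without the filter (adjusted p = 0.0925). The brighter probe set changed with LPS by -0.89 ± 0.34 in wild-type cells (adjusted p = 0.131) and -0.81 ± 0.34 in CD14-deficient cells (adjusted p = 0.227). Its thapsigargin change was -0.72 ± 0.27 in wild-type cells (adjusted p = 0.488) and -1.18 ± 0.27 in CD14-deficient cells (adjusted p = 0.0559), and the latter would pass without scaling (adjusted p = 0.0436) or without the time term (adjusted p = 0.0395). The dimmer probe set changed with thapsigargin by 0.23 ± 0.33 in wild-type cells (adjusted p = 0.869) and by -1.09 ± 0.33 in CD14-deficient cells (adjusted p = 0.0992).

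Csf2rb, the common beta chain through which GM-CSF signals, ranged from 7813 in wild-type cells at 60 h of LPS to 10344 in CD14-deficient cells at the same time. Csf2rb2, the IL-3 beta chain, ranged from 6923 to 8688. With LPS, Csf2rb changed by -0.17 ± 0.23 in wild-type and 0.06 ± 0.23 in CD14-deficient cells, with 95% intervals of -0.72 to 0.39 and -0.49 to 0.61 on the log2 scale. As ratios, the intervals reach 0.608 in wild-type and 1.53 in CD14-deficient cells, so a missing call is not a measure of equality. The probe set shared by both beta chains read 1696 to 3032 and was lowest in unstimulated CD14-deficient cells. The 2 beta chains are close copies of each other, and how far their probe sets cross-hybridise was not tested.

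Zbtb46 was highest in CD14-deficient cells at 48 h of LPS on both tested probe sets. The brighter read 146 in unstimulated wild-type cells, 242 and 141 with LPS and 211 and 278 with thapsigargin as well. In CD14-deficient cells it read 183 unstimulated, 874 and 257 with LPS, and 369 and 262 with thapsigargin as well. Apart from the 874, the 9 arrays of both genotypes lay between 141 and 369 and overlapped. The LPS change was 1.70 ± 0.62 in CD14-deficient cells (adjusted p = 0.181) and 0.67 ± 0.62 in wild-type cells (adjusted p = 0.505), and the genotype difference under LPS was -1.36 ± 0.49 (adjusted p = 0.149). The change with thapsigargin in CD14-deficient cells, -0.61 ± 0.49 (adjusted p = 0.458), became 0.13 without the 48 h LPS array. On the second probe set the 2 arrays of CD14-deficient cells at 48 h read 216 with LPS and 203 with thapsigargin as well, and the 8 others 61 to 132. The third read 19.5 to 50.5 and was not tested.

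Id2 was bright throughout on its brightest probe set and was lowest on the 4 thapsigargin arrays. With LPS and thapsigargin it read 6839 and 5985 in wild-type and 6953 and 6592 in CD14-deficient cells, against 7638 to 10135 on the 6 arrays without thapsigargin. How many of all probe sets part these arrays so was not counted. On the second brightest the same arrays read 3353 to 4351 with thapsigargin and 5929 to 7995 without it. In CD14-deficient cells the thapsigargin change was -0.58 ± 0.14 and -0.76 ± 0.17 on these probe sets (adjusted p = 0.0629 and 0.0531), and in wild-type cells it was -0.37 ± 0.14 and -0.82 ± 0.17 (adjusted p = 0.496 and 0.251). On the dimmest probe set the arrays overlapped, at 278 to 354 with thapsigargin and 243 to 826 without it. That probe set changed with thapsigargin by -0.27 ± 0.32 in wild-type (adjusted p = 0.831) and -1.24 ± 0.32 in CD14-deficient cells (adjusted p = 0.0714). None of these passed the test, though the second would pass in CD14-deficient cells without the time term (adjusted p = 0.0401). The dimmest probe set read 243 and 474 in wild-type and 826 and 777 in CD14-deficient LPS cells, a difference of -1.24 ± 0.32 (adjusted p = 0.0794).

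Itgax was high on some arrays and low on others, with wild-type cells at 48 h of LPS between them, and this followed neither genotype nor time. Unstimulated cells read 7440 (wild type) and 7838 (CD14-deficient). With LPS at 48 and 60 h, wild-type cells read 2921 and 1002 and CD14-deficient cells 892 and 6941. With thapsigargin as well, the 4 arrays read 750 to 1017. CD14-deficient cells at 60 h of LPS were thus near the unstimulated arrays, while CD14-deficient cells at 48 h and wild-type cells at 60 h were near the thapsigargin arrays. Those 2 low LPS arrays are also the ones with the low 18S rRNA controls and the lowest cRNA yields. Their RNA integrity numbers were 10 (CD14-deficient, 48 h) and 8.6 (wild type, 60 h), beside 8.6 for CD14-deficient cells at 60 h of LPS. The part of these measures in the Itgax values was not tested.

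None of the Itgax comparisons passed the test. The LPS change was -2.20 ± 1.26 in wild-type cells (adjusted p = 0.281) and -1.74 ± 1.26 in CD14-deficient cells (adjusted p = 0.452), and the genotype difference under LPS was -0.54 ± 0.98 (adjusted p = 0.756). Single arrays set the sign: the CD14-deficient LPS change became 0.60 without the 48 h array. The genotype difference became 0.59 without the wild-type 60 h array and 1.33 without the CD14-deficient 60 h array. Under thapsigargin, the CD14-deficient change of -1.53 ± 0.98 (adjusted p = 0.352) became 0.33 without the CD14-deficient 60 h LPS array.

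Among partner genes of the CD11c integrin, Itgam and Itgb2 are given for the same arrays. Itgam, the alpha chain CD11b, read 2017, 1265 and 328 in unstimulated and LPS-treated wild-type cells at 48 and 60 h, and 1767, 186 and 1514 in CD14-deficient cells. Itgb2, the beta chain that pairs with CD11c, read 10635, 7230 and 5283 in wild type and 10052, 3744 and 9706 in CD14-deficient cells on the same arrays. Icam1, a ligand of these integrins, ran otherwise: it read 2129 unstimulated, 5159 at 48 h and 3059 at 60 h of LPS in CD14-deficient cells. Of 7 integrin partners listed, 6 were tested: with LPS in wild-type cells Tln1, an adaptor that activates integrins, fell (log2 change -1.05 ± 0.26, adjusted p = 0.0499), and with thapsigargin in CD14-deficient cells Fermt3, another such adaptor, fell (-0.86 ± 0.17, adjusted p = 0.0449). Over all probe sets 14.9% were called in the first comparison and 6.71% in the second. The median log2 change of the 6 was -0.86 with LPS in wild type and -0.80 with thapsigargin in CD14-deficient cells, where all probe sets had medians of -0.09 and 0.00.

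Cd24a, a glycosylated surface protein anchored to the membrane by lipid, was lower on all 8 stimulated arrays than on both unstimulated arrays, on each of its 3 probe sets. For the second brightest the wild-type arrays read 5013 unstimulated, 2015 and 1758 with LPS, and 2219 and 2029 with thapsigargin as well. The CD14-deficient arrays read 4939 unstimulated, 1595 and 959 with LPS, and 2304 and 2436 with thapsigargin as well. On the brightest probe set, unstimulated cells read 7246 and 7731 and stimulated cells 1711 to 3857. The dimmest gave 1379 and 1479 against 193 to 654.

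On the second brightest probe set, Cd24a fell with LPS, with log2 changes of -1.29 ± 0.28 in wild-type cells (adjusted p = 0.0364) and -1.88 ± 0.28 in CD14-deficient cells (adjusted p = 0.037). The brightest probe set changed by -1.25 ± 0.45 (adjusted p = 0.116) and -1.44 ± 0.45 (adjusted p = 0.137), and the dimmest by -1.45 ± 0.70 (adjusted p = 0.21) and -1.95 ± 0.70 (adjusted p = 0.175), with no call. Both calls were kept without either CD14-deficient LPS array, but those fits leave that condition 1 array, so this is no test of the calls. The change there was -1.37 in wild-type cells and -2.28 and -1.63 in CD14-deficient cells. Both calls were lost without any 1 of the 6 other stimulated arrays, with changes of -1.32 to -1.24 in wild type and -1.87 to -1.82 in CD14-deficient cells. They were also lost without scaling (adjusted p = 0.0503 and 0.0576) and without the filter (adjusted p = 0.0997 and 0.0801). Adding thapsigargin changed the second brightest probe set in CD14-deficient cells by 0.94 ± 0.22 (adjusted p = 0.0624). In the same cells the brightest changed by 0.19 ± 0.35 (adjusted p = 0.751) and the dimmest by 0.07 ± 0.55 (adjusted p = 0.95). In wild-type cells the second brightest changed by 0.17 ± 0.22 (adjusted p = 0.847).

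Dpp4, a peptidase of the cell surface that trims chemokines, was bright in unstimulated cells of both genotypes and dim in most stimulated ones. Wild-type cells read 354 unstimulated, 24.3 and 56.7 with LPS, and 34.0 and 29.6 with thapsigargin as well. CD14-deficient cells read 498 unstimulated, 765 and 143 with LPS, and 65.6 and 67.2 with thapsigargin as well. Both unstimulated arrays and both CD14-deficient LPS arrays lay above 99.2, and the 6 other arrays below it. The wild-type LPS signals were as dim as those of Ms4a1, a B cell marker, on the same arrays (24.6 and 59.9). No fold is given against them, and the size of the log2 changes that use them below is uncertain.

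For Dpp4 the LPS change was -3.08 ± 1.01 in wild-type cells, with an interval of -5.56 to -0.60 (adjusted p = 0.0958), and -0.42 ± 1.01 in CD14-deficient cells (adjusted p = 0.836), where it became 0.62 without the 60 h array. Wild type minus CD14-deficient under LPS was -3.15 ± 0.80 (adjusted p = 0.0773), and the thapsigargin change in CD14-deficient cells was -2.32 ± 0.80 (adjusted p = 0.127). None of these passed the test. The second probe set read 0.60 to 34.6 and was not tested.

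Cd1d1, which presents lipids to natural killer T cells, was higher on all 8 stimulated arrays than on the unstimulated ones on its brighter probe set and highest in CD14-deficient cells given LPS alone. Wild-type cells read 1141 unstimulated, 1873 and 1666 with LPS, and 1510 and 1693 with thapsigargin as well. CD14-deficient cells read 1165 unstimulated, 3238 and 3800 with LPS, and 1746 and 1593 with thapsigargin as well. The 2 CD14-deficient LPS arrays lay above all others, and the wild-type LPS and the 4 thapsigargin arrays overlapped. The suffix of this probe set marks probes that can match more than 1 transcript, so a close relative such as Cd1d2 may add to it.

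With LPS in CD14-deficient cells, Cd1d1 rose by 1.58 ± 0.23 on the log2 scale on this probe set (adjusted p = 0.0332) and by 1.71 ± 0.26 on the dimmer one (adjusted p = 0.0374). In wild-type cells the changes were 0.62 ± 0.23 (adjusted p = 0.122) and 0.80 ± 0.26 (adjusted p = 0.0937). Wild-type LPS cells were lower than CD14-deficient ones by -0.99 ± 0.18 on the brighter probe set (adjusted p = 0.0413) and by -0.44 ± 0.20 on the other (adjusted p = 0.227). The difference of the LPS responses on the brighter one was -0.96 ± 0.31 (adjusted p = 0.536).

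Thapsigargin lowered both Cd1d1 probe sets in CD14-deficient LPS cells, by log2 changes of -1.07 ± 0.18 on the brighter (adjusted p = 0.0285) and -0.97 ± 0.20 on the dimmer (adjusted p = 0.0494). In wild-type cells the 2 probe sets disagreed: the dimmer read 1303 and 1288 with LPS against 458 and 661 with thapsigargin as well, a change of -1.24 ± 0.20 (adjusted p = 0.204), and the brighter changed by -0.14 ± 0.18 (adjusted p = 0.841). The difference of the thapsigargin responses on the brighter was 0.93 ± 0.25 (adjusted p = 0.255). With LPS and thapsigargin, the dimmer read 870 and 931 in CD14-deficient cells, and wild type minus CD14-deficient was -0.71 ± 0.20 (adjusted p = 1).

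The 5 Cd1d1 calls were kept without either CD14-deficient LPS array, where the LPS rise was 1.47 to 1.83 on the 2 probe sets. Those fits leave that condition 1 array, so this is no test of the calls. All 5 were lost without any 1 of the 2 wild-type LPS or 4 thapsigargin arrays. There the LPS rise was 1.55 to 1.75 on the 2 probe sets, the genotype difference -1.12 to -0.86 and the thapsigargin fall -1.18 to -0.87. Without the filter, the rise on the brighter was the call that was kept, and the other 4 had adjusted p between 0.0578 and 0.0938. The genotype difference was also lost without scaling (adjusted p = 0.0605), and the thapsigargin fall on the dimmer was lost without scaling (adjusted p = 0.0831), without the floor (adjusted p = 0.0513), with the stricter filter (adjusted p = 0.0507) and without the time term (adjusted p = 0.0564).

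**Figure D2:**
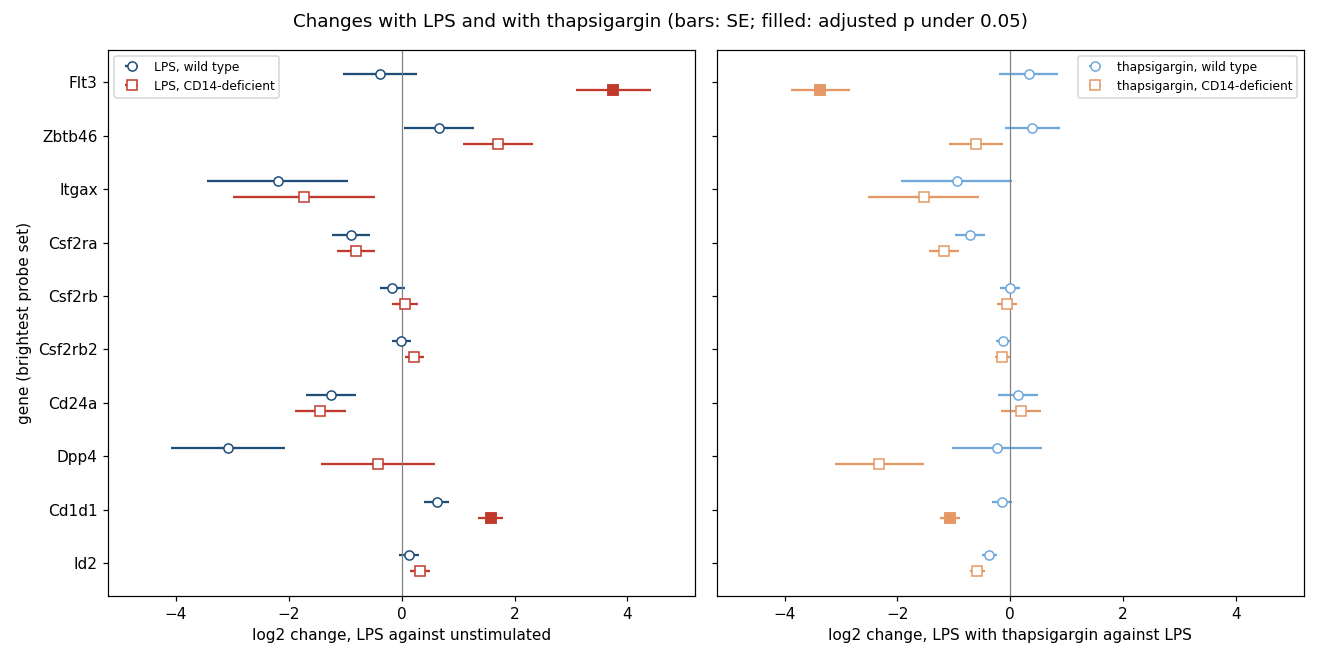
Log2 change of the brightest probe set of each gene with LPS against unstimulated cells (left) and with LPS and thapsigargin against LPS (right), in wild-type (circles) and CD14-deficient (squares) cells, from limma over all 10 arrays. Bars are standard errors and filled symbols passed an adjusted p of 0.05, which Flt3 (3.75 and -3.37) and Cd1d1 (1.58 and -1.07) did in CD14-deficient cells.

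Counted over the comparisons, LPS in wild-type cells lowered 2 of the 17 probe sets, 1 of Csf2ra and 1 of Cd24a, and raised 0. Over all 11649 probe sets, 14.9% were called, 6.39% higher and 8.52% lower, so 2 of 17 is no larger share than that background. In CD14-deficient cells LPS raised 3, those of Flt3 and Cd1d1, and lowered 1 of Cd24a, where 2.94% of all were called, 1.55% higher and 1.39% lower. Taking the brightest probe set of each of the 10 genes, the median log2 LPS change was -0.27 in wild-type and 0.14 in CD14-deficient cells, beside -0.09 and -0.03 over all probe sets. Both LPS times of a genotype share its 1 unstimulated array. These shares rest on 1737 and 342 calls, which single arrays moved widely. Without any 1 of the wild-type LPS or thapsigargin arrays they became 57 to 640 in wild type and 7 to 21 in CD14-deficient cells. Without the 48 or 60 h CD14-deficient LPS array they became 4786 and 4787 in wild type and 1477 and 4275 in CD14-deficient cells.

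Between the genotypes under LPS, 2 of the 17 were lower in wild-type cells, those of Flt3 and Cd1d1, and 0 were higher, against a background of 4.78%, with 2.55% higher and 2.23% lower. Thapsigargin in CD14-deficient cells lowered 3, those of Flt3 and Cd1d1, and raised 0, against 6.71%, with 3.68% higher and 3.03% lower. That comparison uses the same CD14-deficient LPS arrays as the genotype comparison, so the 2 are not independent. The median log2 change of the 10 genes was -0.42 for wild type against CD14-deficient and -0.84 for thapsigargin, beside -0.07 and 0.00 over all. The 557 and 782 calls behind these shares became 1 to 10 and 0 to 56 without any 1 of the wild-type LPS or thapsigargin arrays. Without the 48 or 60 h CD14-deficient LPS array they became 1883 and 4794 for the genotypes and 3021 and 4441 for thapsigargin.

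Thapsigargin in wild-type cells gave no call in limma among these genes, and 0% of all probe sets were called, with 4 of the 17 and 1096 of all at an unadjusted p under 0.05. Without the 48 or 60 h CD14-deficient LPS array, 673 and 694 of all were called. With LPS and thapsigargin, the genotypes differed for 0 of the 17 and 0.0258% of all, with 1 and 446 at an unadjusted p under 0.05. Unstimulated, they differed for 0 of the 17 and 0.00858% of all, with 0 and 143 at that level. The 2 differences between responses gave 0 calls among 17 and 0% of all, with 4 and 976 for LPS and 3 and 1588 for thapsigargin at an unadjusted p under 0.05. Without the 48 or 60 h CD14-deficient LPS array, 15 and 1891 of all were called for LPS and 589 and 2708 for thapsigargin. For 60 h against 48 h, likewise, 0 of the 17 and 0% of all were called, with 1 and 1043 at that level.

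The 48 and 60 h arrays of CD14-deficient LPS cells were farther apart for these genes than those of any other stimulated condition. By the brightest probe set, 5 of the 10 genes differed at least 2-fold between them, where 18.0% of all probe sets did: at 48 h Dpp4 was 5.34-fold, Flt3 3.44-fold, Zbtb46 3.41-fold and Cd24a 2.25-fold higher, and Itgax was 7.78-fold lower. In wild-type LPS cells 2 of the 10 did, against 8.13%, with Itgax 2.91-fold higher and Dpp4, dim at both times, lower at 48 h. With thapsigargin as well, 0 of the 10 did in either genotype, against 1.71% in wild-type and 2.65% in CD14-deficient cells. These are single arrays, so the distance between 2 times also holds the distance between 2 cultures.

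**Figure D3:**
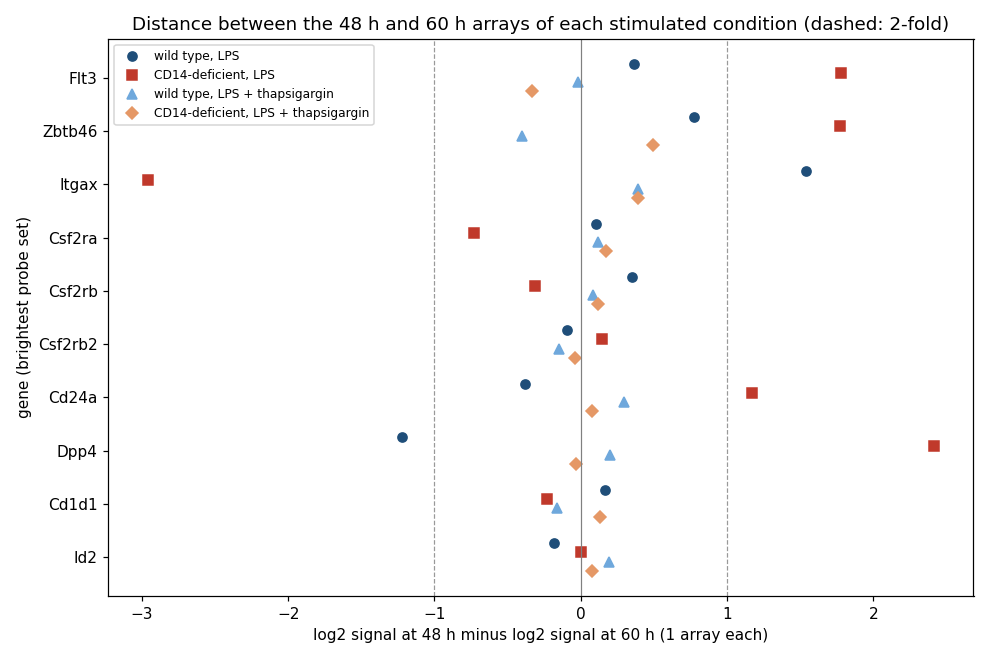
Log2 signal at 48 h minus log2 signal at 60 h for the brightest probe set of each gene, 1 array each, in the 4 stimulated conditions; dashed lines mark 2-fold. In CD14-deficient LPS cells (red squares) 5 of the 10 genes lay outside the lines, and with thapsigargin (triangles and diamonds) 0 did.

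Array by array, the genotypes differed at least 2-fold in 1 of the 10 genes when unstimulated (Flt3, 2.11-fold higher in wild type), where 1.44% of all probe sets did. At 48 h of LPS 4 of the 10 did, against 31.0%: Dpp4, Flt3 (13.6-fold) and Zbtb46 (3.61-fold) were higher in CD14-deficient cells and Itgax was 3.27-fold higher in wild type. At 60 h 4 did, against 14.1%, with Itgax (6.92-fold), Flt3 (5.09-fold), Dpp4 and Cd1d1 (2.28-fold) higher in CD14-deficient cells. Itgax thus changed side between the 2 times. With thapsigargin, 0 of the 10 differed at 48 h, against 2.74%, and 1 at 60 h, Dpp4, against 1.81%.

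Cells given LPS and thapsigargin differed from unstimulated cells at least 2-fold in 4 of the 10 genes in wild type, all lower, at 48 h (29.8% of all probe sets) and at 60 h (27.4%). The CD14-deficient arrays had 5 at 48 h, with 1 higher, against 31.7%, and 4 at 60 h, all lower, against 28.3%. The 4 lower genes were Itgax, Csf2ra, Cd24a and Dpp4 on each of these arrays, and the higher one was Zbtb46.

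Other genes of dendritic cell development and of these receptors were followed through 8 lists with 72 distinct tested genes. Of 16 tested transcription factors, 4 rose and 4 fell with LPS in wild-type cells, where 6.39% of all probe sets were called higher and 8.52% lower. The largest rises were those of Nfil3, a repressor needed for cDC1 development (4.07 ± 0.67, adjusted p = 0.0178), and Irf8, the factor that specifies cDC1 (2.17 ± 0.28, adjusted p = 0.0108). The largest falls were those of Cebpa, a factor of myeloid progenitors (-2.01 ± 0.47, adjusted p = 0.043), and Irf4, a factor of cDC2 (-1.94 ± 0.48, adjusted p = 0.0476).

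In CD14-deficient cells, Irf8 rose with LPS by 2.97 ± 0.28 (adjusted p = 0.0152) and Klf4, a factor of monocytes and of a cDC2 subset, changed by -3.29 ± 0.37 (adjusted p = 0.0233), and the other 14 did not pass, where 2.94% of all were called. Klf4 read 1828 unstimulated, 164 and 340 with LPS, and 761 and 1630 with thapsigargin as well, and it rose with thapsigargin by 2.24 ± 0.29 (adjusted p = 0.0214). Under LPS Klf4 was higher in wild-type cells (1.88 ± 0.29, adjusted p = 0.0331) and Irf4 lower (-2.40 ± 0.38, adjusted p = 0.0336). Irf4 and Flt3 were both higher in CD14-deficient LPS cells, at 2274 and 1734 for Irf4 against 268 and 527 in wild-type LPS cells.

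Of 14 tested genes shared by classical dendritic cells, 3 rose with LPS in wild-type cells and 0 fell, beside 6.39% higher and 8.52% lower over all, with Slamf7, a receptor of immune cells, at 2.10 ± 0.29 (adjusted p = 0.0121) and Traf1, an adaptor of TNF receptors, at 2.08 ± 0.45 (adjusted p = 0.0349). In CD14-deficient cells 0 of the 14 passed, where 2.94% of all were called, with a median log2 change of 1.36 beside -0.03 over all. Several of these genes were far higher at 48 than at 60 h of LPS there, as Hmgn3 (1710 and 473), Spint2 (2462 and 551) and Tbc1d8 (3149 and 1137). Others, as Slamf7 (1783 and 1661) and Runx3 (140 and 124), were close. With thapsigargin in CD14-deficient cells Kmo, an enzyme of tryptophan breakdown, changed by -2.53 ± 0.51 (adjusted p = 0.0439). Its signal read 402 in unstimulated CD14-deficient cells, 209 and 103 with LPS, and 24.2 and 26.7 with thapsigargin as well.

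Of 17 tested genes of GM-CSF receptor signalling, 2 rose and 2 fell with LPS in wild-type cells, where 14.9% of all were called: Socs3 (1.57 ± 0.24, adjusted p = 0.0151), an inhibitor of cytokine signalling, and the kinase Pim1 (0.99 ± 0.17, adjusted p = 0.0213) rose, and the phosphatase Ptpn6 (-2.47 ± 0.22, adjusted p = 0.00496) and the kinase subunit Pik3cd (-1.71 ± 0.36, adjusted p = 0.0335) fell. Ptpn6 also fell with LPS in CD14-deficient cells (-1.28 ± 0.22, adjusted p = 0.0434). Under LPS, Ptpn6 (-1.07 ± 0.17, adjusted p = 0.0356) and Socs2 (-1.03 ± 0.20, adjusted p = 0.0485) were lower in wild-type than in CD14-deficient cells. Pim1 rose with thapsigargin in CD14-deficient cells (1.00 ± 0.14, adjusted p = 0.0226).

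Among 6 tested growth factors and receptors of the myeloid lineage, Csf3, the neutrophil growth factor G-CSF, rose with LPS in wild-type cells, from 5.52 (under the floor) to 1837 and 3656, and in CD14-deficient cells from 20.1 to 67.1 and 130 (1.66 ± 0.29, adjusted p = 0.0477). It was higher in wild-type LPS cells (4.79 ± 0.23, adjusted p = 0.00263) and rose with thapsigargin in CD14-deficient cells (2.45 ± 0.23, adjusted p = 0.0141). Csf1, the macrophage growth factor, fell with LPS in wild-type cells (-1.93 ± 0.43, adjusted p = 0.0366) and rose with thapsigargin in CD14-deficient cells (1.67 ± 0.33, adjusted p = 0.0437). Of 5 tested Id and E proteins, Id1, a relative of Id2, fell with LPS in both genotypes (-3.13 ± 0.32 in wild type, adjusted p = 0.00688; -3.20 ± 0.32 in CD14-deficient cells, adjusted p = 0.0186). None of the 4 tested dipeptidyl peptidases and partners of Dpp4 and none of the 8 tested genes of lipid loading of CD1d passed limma's test in these 5 comparisons. Over all probe sets 14.9% and 2.94% were called with LPS in wild-type and CD14-deficient cells and 4.78% between the genotypes under LPS. With thapsigargin 0% and 6.71% were called in wild-type and CD14-deficient cells. At such shares, few or no calls would be looked for in lists this short.

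Over the 72 genes, LPS called 18 in wild type and 5 in CD14-deficient cells, the genotype comparison under LPS 5, and thapsigargin 0 in wild type and 6 in CD14-deficient cells. Over all probe sets the shares called were 14.9%, 2.94%, 4.78%, 0% and 6.71% in the same order. Leaving out any 1 of the 2 wild-type LPS or 4 thapsigargin arrays brought these to 1 to 5, 0, 0 to 1, 0 and 0 to 1, in that order. Leaving out the 48 or 60 h CD14-deficient LPS array raised the LPS counts to 30 and 30 in wild type and to 21 and 45 in CD14-deficient cells, the genotype count to 23 and 49, and the thapsigargin counts to 9 and 10 in wild type and 29 and 40 in CD14-deficient cells.

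Which genes followed Flt3, Itgax and Cd24a most closely was described by Pearson's r of log2 signal over the 10 arrays, which share 1 platform and 1 scaling. For Flt3 they were Vdr, the vitamin D receptor (0.941), Lad1 (0.941), Slc9a3r1 (0.935), Castor2 (0.933) and Fam32a (0.931). Vdr read 2262 and 871 on the CD14-deficient LPS arrays and 276 to 534 on the 8 others, the same 2 arrays on which Flt3 stood out. For Itgax they were Chmp4b (0.987), Dnmt3a (0.987), Myo1f (0.981), Trappc2l (0.979) and Lpl, lipoprotein lipase (0.976), and for Cd24a Bach1 (0.946), Cdt1 (0.943), Cldn1 (0.940), Epcam (0.936) and Mapk13 (0.935). Among the 10 genes themselves, Itgax and Csf2ra were the closest pair (r = 0.904), followed by Flt3 and Cd1d1 (r = 0.787), and Cd24a and Cd1d1 ran against each other (r = -0.682). The tested probe sets of one gene had r of 0.73 to 0.94.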

How the data were processed

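RNA of 10 cultures was hybridised to 1-colour mouse expression arrays, 1 per condition. The deposited table holds an intensity per probe set on a linear scale, made by the authors with MAS5, per the submitters' processing notes; for the version, the scaling target and the genome build, each is not given in the sources used. Probe sets were named through the platform annotation: of 22690, 64 were controls, 20380 carried 1 symbol, 691 several and 1606 none; controls were left out of the first class only, so some are also counted in the other classes.

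Trimmed means (2% cut from each end) differed between arrays from 444 to 553, a ratio of 1.25, so each array was scaled to 509. Signals were raised to a floor of 13.4 (25th percentile) and log2 was taken. Probe sets above 99.2 (50th percentile) on at least 2 arrays were kept, which left 11649 of 7476 genes.

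limma 3.58.1 in R 4.3.3 fitted 6 genotype and treatment levels and a 60 h term over all 10 arrays, with 3 residual and 2.98 prior degrees of freedom, moderated statistics and Benjamini-Hochberg adjustment. The 48 and 60 h arrays of a condition act as its replicates, so the error is their departure from a common 48 to 60 h shift; p-values do not cover cultures or mice, and the number of arrays limits precision. The fit was tested on simulated data. Named genes were the members, genes of 8 pathway lists past the threshold, and the 5 genes most like Flt3, Itgax and Cd24a. Members and lists were chosen with earlier results of these data known. Alternatives changed the scaling, floor, filter, time term, probe set per gene and arrays included. Promoter sequences are from RefSeq, GRCm38.p6.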

Additional observations from a re-analysis of the deposited data

Results flagged for a closer look

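Flt3 signals with LPS lay below the unstimulated array at both times in wild-type cells and above it at both times in CD14-deficient cells, although the wild-type change did not pass the test (limma, adjusted p = 0.733): log2 differences from unstimulated cells were -0.42 and -0.79 at 48 and 60 h in wild-type cells and 4.42 and 2.64 in CD14-deficient cells. The difference of the responses was -4.13 ± 0.90 (SE; limma, adjusted p = 0.435) and did not pass the test. With thapsigargin, the Flt3 differences from LPS alone were 0.13 and 0.52 in wild-type and -4.42 and -2.31 in CD14-deficient cells, a difference of 3.69 ± 0.74 (limma, adjusted p = 0.213) that did not pass either. Both rest on the same 2 CD14-deficient LPS arrays. For Id2 on its dimmest probe set, the LPS differences from unstimulated cells were -1.30 and -0.34 in wild-type and 0.88 and 0.80 in CD14-deficient cells, a difference of -1.66 ± 0.55 (limma, adjusted p = 0.552), and its 2 brighter probe sets were not singled out by this comparison.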

How the results depend on the processing

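No paired analysis was possible because each condition has 1 array and the labels carry no replicate numbers. Of the 17 probe sets, LPS in wild-type cells called 2, and 1 without scaling, 0 without the filter on dim signals and 0 with 1 probe set per gene. LPS in CD14-deficient cells called 4, and 1 without the filter and 2 with 1 probe set per gene. The genotype comparison under LPS called 2, and 1 without scaling and 0 without the filter, and thapsigargin in CD14-deficient cells called 3, and 0 without the filter. Leaving out each stimulated array in turn gave counts of 0 to 9, 0 to 12, 0 to 10 and 0 to 12 for these comparisons, 0 to 3 for thapsigargin in wild-type cells, 0 to 2 and 0 to 6 for the differences between the LPS and thapsigargin responses, and 0 to 0 for the others. For the first 4 comparisons, the highest counts came without a CD14-deficient LPS array, where calls over all probe sets, given above, also rose. The counts of 0 came without a wild-type LPS or thapsigargin array, where calls over all probe sets also fell. Each of these fits leaves 1 condition with 1 array, so the counts are no test of the calls. Changes of sign came only from leaving out an array: the LPS change of Itgax in CD14-deficient cells ranged from -3.14 to 0.60, that of Dpp4 from -2.15 to 0.62, the genotype difference of Itgax under LPS from -2.41 to 1.33 (0.59 without wild type at 60 h), and the thapsigargin change in CD14-deficient cells from -1.34 to 0.13 for Zbtb46 and from -3.40 to 0.33 for Itgax. The LPS change of Csf2rb in CD14-deficient cells ranged from -0.13 to 0.37 and the thapsigargin change of the dimmest Id2 probe set in wild-type cells from -0.80 to 0.26. The cause was not tested. Over all probe sets, dropping the filter moved the calls of LPS in wild-type cells from 1737 of 11649 to 1220 of 20380. It moved those of the genotype comparison from 557 to 136 and of thapsigargin in CD14-deficient cells from 782 to 198. Those of LPS in CD14-deficient cells rose from 342 to 508. Without scaling, LPS in wild-type cells called 1433 of 11664 and the genotype comparison 340 of 11664. With 1 probe set per gene, LPS called 1262 of 7474 in wild-type and 304 of 7474 in CD14-deficient cells. Without scaling the median log2 change of all probe sets moved from -0.09 to -0.22 for LPS in wild-type cells, from -0.06 to -0.27 for the difference of the LPS responses, from 0.05 to 0.16 for 60 against 48 h and from 0.00 to 0.17 between the unstimulated genotypes. The unstimulated arrays were not left out, since each is the only one of its genotype.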
